A study of Gallus gallus with 12 samples.

Results

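The cardiac lineage transcription factors are the DNA-binding proteins that direct the formation of heart muscle from mesoderm. NKX2-5, GATA4, GATA5, GATA6, TBX5, TBX20, MEF2A, MEF2C, HAND2 and IRX4 were followed here, 10 genes in all, and each was found through the gene symbol that the array platform gives a probe set. They have 22 probe sets of the 38535 in the deposited table, and all 22 have a value on all 12 arrays. They are 10 of the 13009 genes that the annotation names through probe sets with 1 symbol. One more probe set is annotated to both IRX6 and IRX4 and was not counted.

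Hearts were taken from chicken embryos of 3 breeds (Tibetan, Shouguang, Dwarf Recessive White), from full-sib eggs incubated either in hypoxia or in normoxia. Each of the 6 combinations of breed and condition was hybridised to 2 Affymetrix arrays, made from total RNA of the heart. How low the oxygen was, on which day hearts were taken, which part of the heart was used, the embryos' sex and how many hearts made up a sample were not given in the sources used here. Nothing says whether the 2 arrays of a group came from separate embryos, so p-values speak only to how these arrays vary among themselves, which could be technical variation.

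NKX2-5 is a homeodomain protein, the GATA factors bind DNA through zinc fingers, TBX5 and TBX20 carry a T-box, MEF2A and MEF2C a MADS box, HAND2 is a basic helix-loop-helix protein and IRX4 an Iroquois homeodomain protein. They bind side by side at the enhancers of contractile genes and activate one another, so that the network, once started, keeps itself going in the working heart muscle. TBX5 is known for the left side of the heart, the atria and the conduction system, HAND2 for the right ventricle and the outflow tract, TBX20 for the chamber wall and the endocardial cushions, and IRX4 marks the ventricle, in which the chick protein keeps atrial myosin off.

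Values below are log2 signals of single probe sets, and differences are on the same log2 scale, estimated with limma (1 mean per group, 6 groups) and given with the standard error (SE). Adjusted p-values are two-sided and Benjamini-Hochberg adjusted over all 23063 probe sets that passed a filter on dim signal, with a threshold of 0.05. The dim limit is a log2 signal of 6.31. Of the 22 probe sets 20 passed, at least 1 for each gene. The probe sets of a gene are numbered by their mean signal, and the one with the highest, number 1, is called the main probe set. Those left out by the filter were TBX5 probe set 3 (from 3.99 to 7.15, under the limit on 9 of the 12 arrays) and MEF2A probe set 5 (from -0.14 to 5.37, under it on all 12). Signals of different probe sets cannot be ranked against each other, so each one is compared only with itself across arrays.

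The arrays were alike in scale, with median signals of 134 to 155 and the same trimmed mean. Heart muscle genes had high signal on every array: TNNT2 (cardiac troponin T) read 15.27 to 15.56, ACTC1 (cardiac actin) 15.24 to 15.49 and MYL2 (the ventricular myosin light chain) 15.53 to 15.81. Markers of neighbouring tissues were mixed. Of 9 skeletal muscle markers 4 passed the filter (ACTA1, MYL1, TNNC2 and MYF5, with a mean log2 signal of 9.11 to 10.39), while the regulator MYOD1 read 1.70 to 3.96 and MYF5 4.46 to 7.61. Of 7 lung and gut markers on the array 3 passed (KRT7, CDX2 and EPCAM, with a mean of 8.23 to 8.96), while NKX2-1, of lung, read 0.61 to 5.27 and FOXA2, of endoderm, 4.67 to 6.66. Genes on the female W chromosome differed between arrays, with a mean log2 signal between 8.09 and 9.60 on 11 arrays and of 6.01 on the remaining one, replicate 1 of normoxic Dwarf Recessive White. In Shouguang this mean was 8.09 and 8.25 in hypoxia against 9.43 and 8.95 in normoxia. In Tibetan it was 9.60 and 9.42 against 9.23 and 9.47. The median W-linked difference was 0.89 for Tibetan minus Shouguang and 1.44 for Tibetan minus Dwarf Recessive White, so breed comparisons also carry this imbalance. In an extract of heart tissue, fewer cells of a type and less RNA per cell cannot be told apart.

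The main probe set of all 10 factors was above the dim limit on every array, and none passed the adjusted limma test for hypoxia or between breeds. NKX2-5, the homeodomain factor that marks the whole myocardium, lay between 12.14 and 12.82 over the 12 arrays. Among the GATA factors, GATA4 lay between 9.31 and 10.12, GATA5 between 13.39 and 14.03 and GATA6 between 10.95 and 11.73. The main probe set of MEF2A, the MADS box factor abundant in differentiated muscle, was the steadiest of the 10, with an SD over the arrays of 0.10 and a range of 0.34. Its other tested probe sets had SDs of 0.17, 0.19 and 0.25, so this holds for the main probe set only.

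For NKX2-5, GATA6 and TBX5 the breed means lay within the spread of the arrays. NKX2-5 averaged 12.42 ± 0.21 (SD, n = 4 arrays) in Tibetan, 12.58 ± 0.20 in Shouguang and 12.53 ± 0.20 in Dwarf Recessive White hearts. GATA6 averaged 11.38 ± 0.31, 11.24 ± 0.16 and 11.31 ± 0.38 in the same order of breeds. TBX5 averaged 9.66 ± 0.27, 9.59 ± 0.25 and 9.51 ± 0.26. In each of these 3 genes, neighbours in the order of breeds differed by less than 1 SD between the arrays of a breed. Replicate 2 minus replicate 1 was -0.30 for NKX2-5, -0.47 for GATA6 and 0.24 for TBX5, of the same sense in all 6 groups. The SDs include this difference, so they do not show that the breeds were equal.

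By SD over the 12 arrays, the widest spread among the main probe sets belonged to TBX20 (0.39, with a range of 1.27), followed by MEF2C (0.36, range 1.26) and GATA4 (0.29, range 0.81); IRX4 and HAND2 had wider ranges than GATA4, 1.01 and 0.87. In these 3 genes the Dwarf Recessive White normoxia mean was the highest of the 6 group means. For TBX20 and MEF2C, the Dwarf Recessive White hypoxia mean was the lowest.

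**Figure D1:**
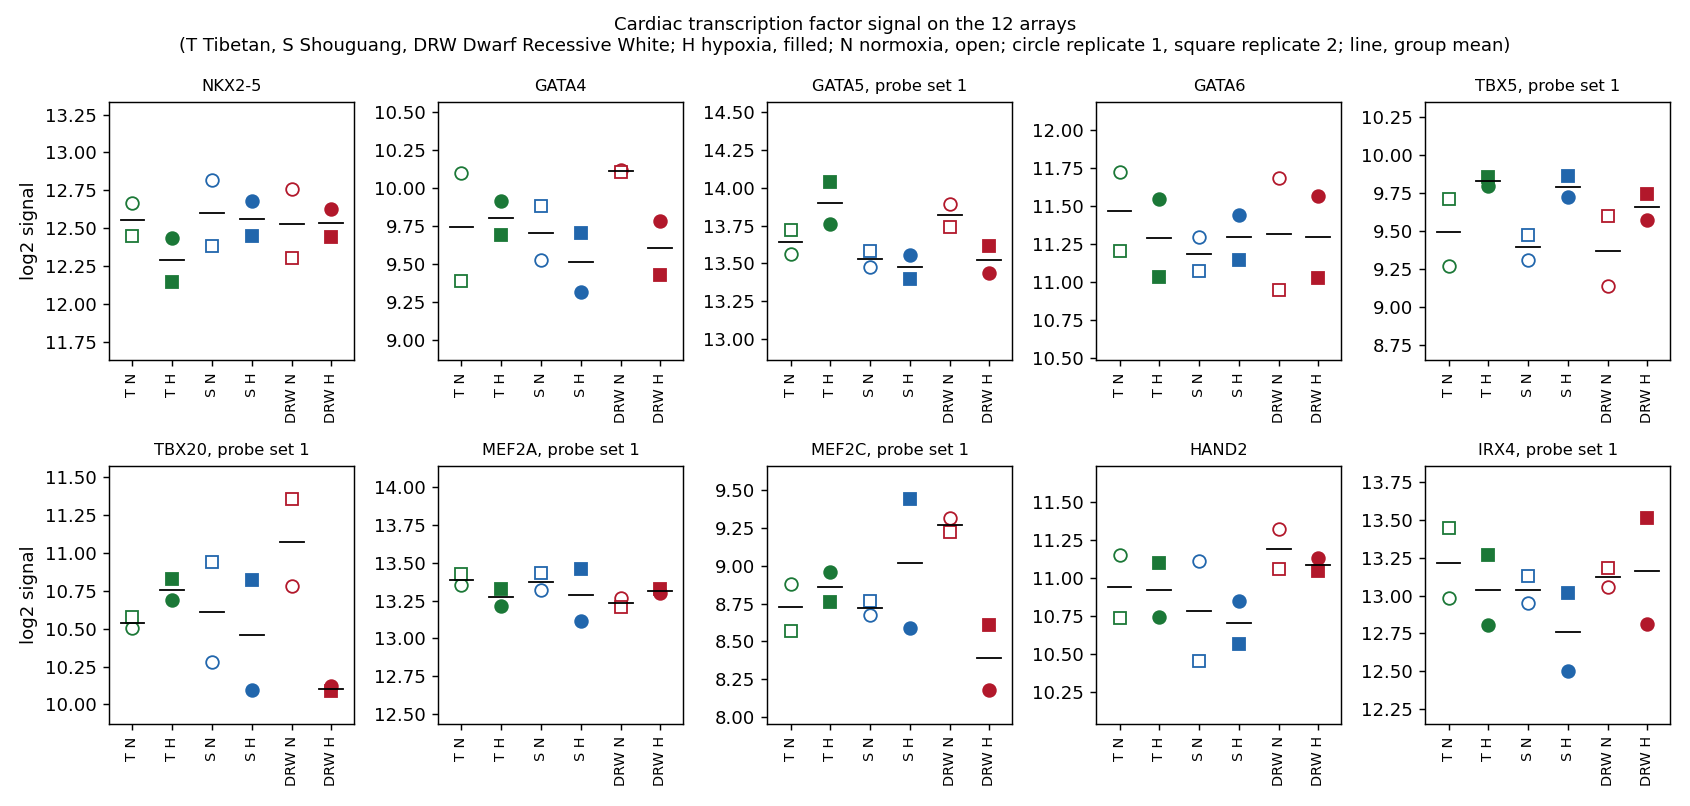
Log2 signal (vertical axis) of the main probe set of each factor on the 12 arrays, by breed and condition (horizontal axis); each panel spans 1.7 log2 units, filled symbols are hypoxia, open symbols normoxia, circles replicate 1, squares replicate 2, and the line is the mean of 2 arrays. TBX20 and MEF2C show the widest gap between the conditions in Dwarf Recessive White, and NKX2-5 and GATA6 read higher on replicate 1 than on replicate 2 in all 6 groups.

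The question of the series is how hypoxia affects the embryonic heart. Averaged over the 3 breeds, hypoxia minus normoxia was between -0.32 and 0.34 for the 20 tested probe sets, and limma called 0 of them. Over all tested probe sets it called 13, which is 0.0564%. None of the 20 had both hypoxia arrays on the same side of both normoxia arrays in each of the 3 breeds, against 2.48% of all tested probe sets. At an unadjusted p under 0.05 there were 2 of the 20 (TBX5 and IRX4), or 10%, against 8.36% of all tested probe sets. The median of the 20 differences was -0.08, with 16 below 0, while the median of all tested probe sets was 0.01 and 48.9% of them lay below 0.

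TBX5, the T-box factor of atria and conduction tissue, had the largest positive difference. Its hypoxia arrays read 9.80 and 9.85 in Tibetan, 9.72 and 9.86 in Shouguang, and 9.57 and 9.74 in Dwarf Recessive White. In normoxia the TBX5 signals were 9.27 and 9.71, 9.31 and 9.48, and 9.14 and 9.60 in the same order of breeds. Both hypoxia arrays were above both normoxia arrays in Tibetan and Shouguang, and they overlapped in Dwarf Recessive White. The TBX5 difference was 0.34 ± 0.12 (SE, n = 6 arrays per condition), with an unadjusted limma p of 0.0116, an adjusted p of 0.413 and a 95% confidence interval from 0.09 to 0.59. TBX5 probe set 2 stood at 0.30 ± 0.27.

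IRX4, the ventricular factor, had 3 tested probe sets. The main probe set and probe set 2 gave mean hypoxia differences of the same sign, and probe set 3 gave the opposite sign. Probe set 2, the one with the smallest p, read 12.66 and 12.73 in Tibetan hypoxia against 12.94 and 13.04 in normoxia. Its Shouguang signals were 12.55 and 12.54 in hypoxia against 12.98 and 12.78 in normoxia. Dwarf Recessive White hearts read 12.90 and 13.03 in hypoxia against 13.18 and 12.97 in normoxia. The conditions were apart in Tibetan and Shouguang, with hypoxia lower, and overlapped in Dwarf Recessive White. The IRX4 difference for this probe set was -0.24 ± 0.06, with an unadjusted limma p of 0.00198, an adjusted p of 0.231 and a 95% confidence interval from -0.38 to -0.11. The main IRX4 probe set stood at -0.14 ± 0.14, and probe set 3, under the dim limit on 5 arrays, at 0.27 ± 0.44.

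The other factors were closer to 0 against their error. Farthest among them were TBX20, at -0.30 ± 0.15 and -0.32 ± 0.18 on its 2 probe sets, and MEF2A probe set 2, at -0.15 ± 0.07. NKX2-5 stood at -0.10 ± 0.10, with a 95% confidence interval from -0.33 to 0.13. GATA4, which partners NKX2-5 and TBX5 at cardiac enhancers, stood at -0.21 ± 0.14 (from -0.52 to 0.09). For GATA6 the difference was -0.03 ± 0.16 (from -0.37 to 0.31), and for HAND2 it was -0.07 ± 0.13 (from -0.34 to 0.21). Each of these intervals spans 0, which does not show that the levels were equal. The errors of NKX2-5 and GATA6 include their differences between replicate numbers, -0.30 and -0.47 for replicate 2 minus replicate 1.

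**Figure D2:**
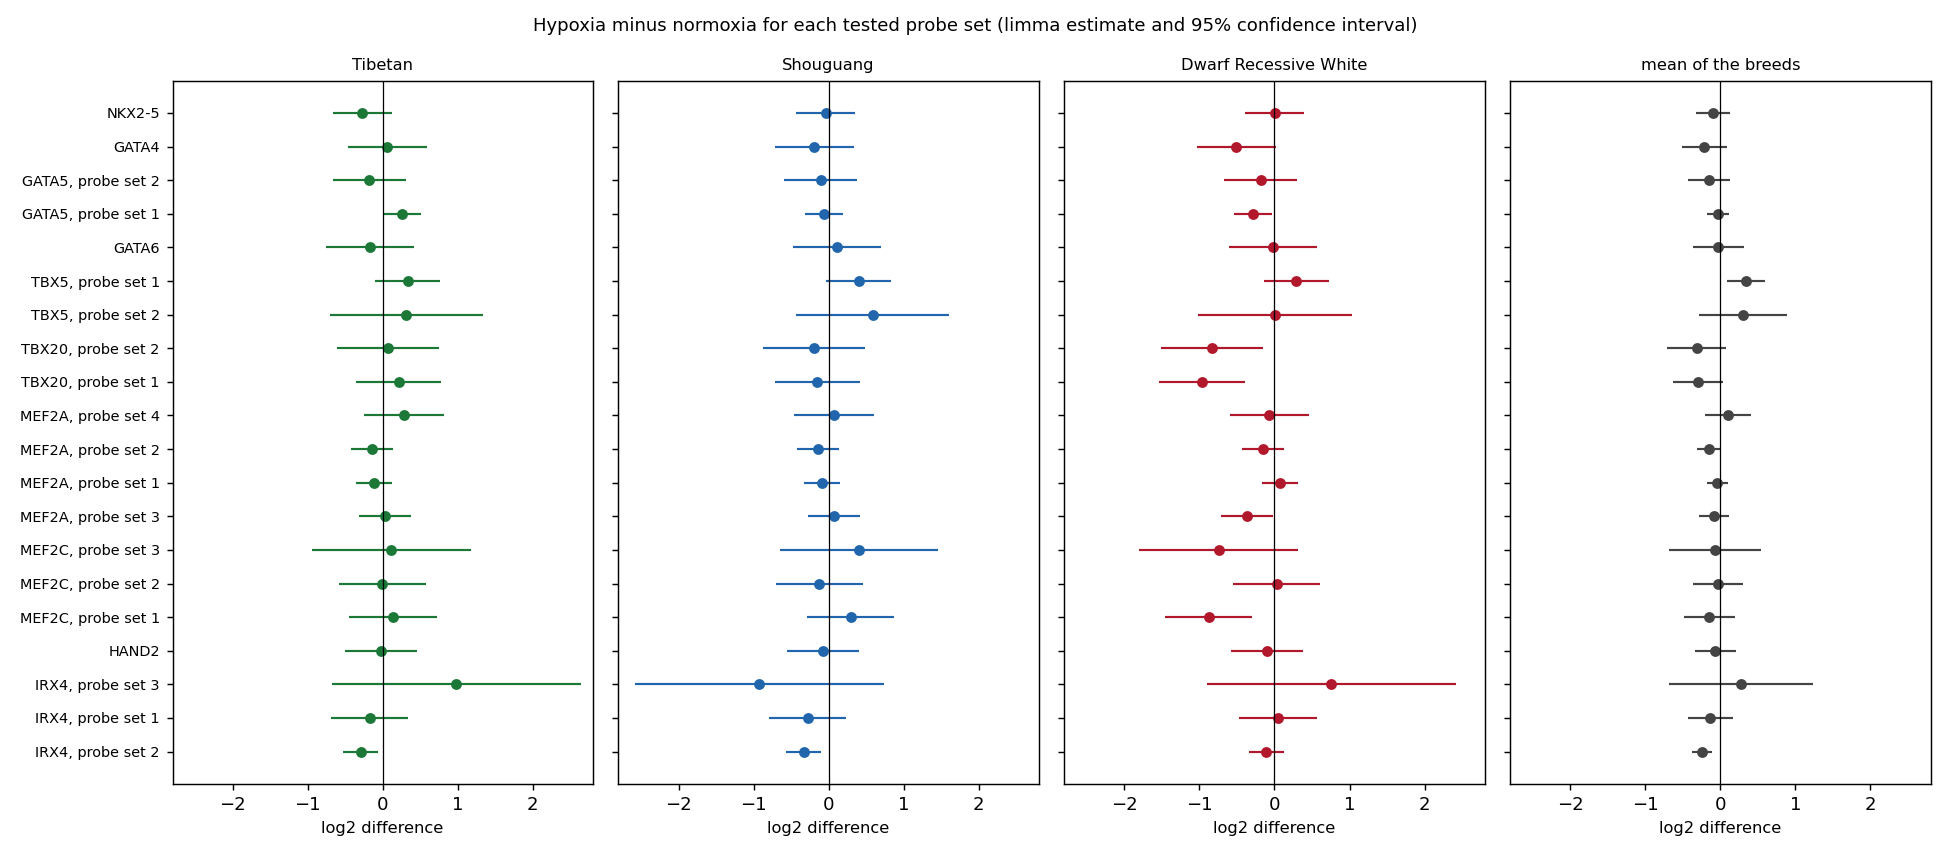
Hypoxia minus normoxia in log2 units (horizontal axis) for the 20 tested probe sets (vertical axis), in each breed and as the mean of the breeds; points are limma estimates and lines 95% confidence intervals. TBX20 and MEF2C lie lowest against their intervals in Dwarf Recessive White. The point of TBX5 probe set 1 lies above 0 in each breed, with an interval that spans 0 in each. The point of IRX4 probe set 2 lies below 0 in each breed, with an interval that spans 0 in Dwarf Recessive White.

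Within the Dwarf Recessive White breed, TBX20, MEF2C, GATA4 and the main probe set of GATA5 had lower signals in hypoxia than in normoxia on both arrays, with none passing the adjusted test. TBX20, a factor of the chamber wall and cushions that acts partly as a repressor, read 10.12 and 10.09 in hypoxia against 10.78 and 11.36 in normoxia. TBX20 probe set 2 read 9.54 and 9.35 against 10.09 and 10.46. Both probe sets thus had separated conditions, and the 2 hypoxia arrays were close to each other. The TBX20 differences were -0.97 ± 0.26 (adjusted p = 0.511) on the main probe set and -0.83 ± 0.31 (adjusted p = 0.731) on probe set 2.

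MEF2C, the MADS box factor needed for the right ventricle and outflow tract in the mouse, read 8.18 and 8.61 in Dwarf Recessive White hypoxia against 9.32 and 9.22 in normoxia. The MEF2C difference was -0.88 ± 0.27 (adjusted p = 0.601). MEF2C probe set 2 stood at 0.03 ± 0.27 and probe set 3 at -0.74 ± 0.49, so the 3 probe sets gave different values. MEF2C is the only one of the 10 genes that the reference gene table places on the Z chromosome, of which males have a pair and females a single copy. The W-linked level in this breed was 9.49 and 8.15 on the hypoxia arrays and 6.01 and 8.42 on the normoxia arrays. When the W-linked level was added as a covariate, the main MEF2C difference was -0.72, and without normoxia replicate 1, the array of low W-linked signal, it was -0.83.

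GATA4 read 9.78 and 9.42 in hypoxia against 10.12 and 10.11 in normoxia of Dwarf Recessive White, a difference of -0.51 ± 0.24 (adjusted p = 0.799). GATA5, the GATA factor best known from endocardium and early heart, read 13.43 and 13.62 against 13.90 and 13.74 on its main probe set, a difference of -0.29 ± 0.12 (adjusted p = 0.749). The conditions did not overlap on these probe sets of GATA4 and GATA5. On GATA5 probe set 2 they did, at -0.18 ± 0.22. NKX2-5 (0.01 ± 0.18), GATA6 (-0.02 ± 0.27) and HAND2 (-0.10 ± 0.22) had overlapping arrays in this breed.

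In Dwarf Recessive White, 8 of the 20 probe sets, from 5 genes, had hypoxia arrays entirely below the normoxia arrays, and 1 had them entirely above. Of all tested probe sets 37.2% had arrays that did not overlap in this breed, 18.5% with hypoxia lower. The 8 were GATA4, the main probe set of GATA5, both of TBX20, MEF2A probe sets 2 and 3, and MEF2C probe sets 1 and 3. The 1 entirely above was the main MEF2A probe set, at 0.08 ± 0.11. MEF2A probe set 4 overlapped, at -0.07 ± 0.24. limma called 0 of the 20 (0.00434% of all tested probe sets were called). At an unadjusted p under 0.05 there were 5 of the 20, against 6.33% of all tested probe sets, 3.07% with hypoxia lower. All 5 were lower in hypoxia (main GATA5, both of TBX20, MEF2A probe set 3 and main MEF2C). The 5 come from 4 genes, and the TBX20 probe sets among them are not independent (r = 0.937 over the 12 arrays).

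Values of other transcripts in the same comparison are given for reading beside these. YAP1, a coactivator of the Hippo pathway, stood at -0.70 ± 0.28 (adjusted p = 0.749). Of the 15 measured cofactors of the members, YAP1 included, 11 lay above 0, with a median of 0.15. ANKRD1, a stretch-responsive gene of the sarcomere, stood at 1.92 ± 0.37 (adjusted p = 0.226). Of the 26 measured sarcomere and other target genes, ANKRD1 included, 22 lay below 0, with a median of -0.07. Of 8 measured liver and yolk sac markers 6 lay below 0, and their mean log2 signal was 7.40 and 6.92 in hypoxia against 8.17 and 8.41 in normoxia. ALB (serum albumin) and TTR (transthyretin) were the 2 of them called in the mean of the breeds, while HNF4A, the defining hepatocyte regulator, lay between 2.14 and 6.96 on its 3 probe sets, all of which the dim filter removed. The mean log2 signal of 10 endothelial and endocardial markers was 10.17 and 10.04 in hypoxia and 10.10 and 10.25 in normoxia, so it overlapped, as did the means of the epicardial, fibroblast and neural markers. The mean of 7 red blood cell markers was 11.62 and 11.54 in hypoxia against 11.15 and 11.03, with 5 of the 7 above 0 and none called. The 4 skeletal muscle markers averaged 9.76 and 9.64 against 10.35 and 10.39, all 4 below 0 and none called, and the 3 lung and gut markers 8.43 and 8.48 against 8.51 and 8.59. The part of these transcripts in the TBX20 and MEF2C differences was not tested.

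In Tibetan hearts limma called 0 of the 20 probe sets (0% of all tested probe sets were called). At an unadjusted p under 0.05 there were 2, or 10%, with 4.45% over all tested probe sets. Hypoxia and normoxia arrays did not overlap for 8 of the 20, against 32.7% of all tested probe sets. GATA5 on its main probe set read 13.76 and 14.03 in hypoxia against 13.56 and 13.72 in normoxia, a difference of 0.26 ± 0.12 (adjusted p = 0.9997). IRX4 probe set 2 stood at -0.29 ± 0.11. Both had arrays apart, GATA5 with hypoxia higher and IRX4 with hypoxia lower. The main IRX4 probe set stood at -0.17 ± 0.24, with overlapping arrays. IRX4 probe set 3, under the dim limit on 5 of the 12 arrays, stood at 0.98 ± 0.76, with arrays apart and hypoxia higher. GATA5 probe set 2 stood at -0.18 ± 0.22, with overlapping arrays. TBX20 read 10.69 and 10.83 against 10.50 and 10.58, and MEF2C 8.96 and 8.76 against 8.88 and 8.57. On the main TBX20 probe set the conditions were apart by a small step, with hypoxia higher, and those of MEF2C overlapped. TBX20 probe set 2 overlapped as well, at 0.08 ± 0.31.

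In Shouguang hearts limma also called 0 of the 20 (0% over all tested probe sets), and 1 had an unadjusted p under 0.05, against 5.52% over all. The arrays did not overlap for 3 of the 20, against 32.2%. The probe set with the low p was the same IRX4 probe set, at -0.33 ± 0.11 (adjusted p = 0.812). TBX5 stood at 0.40 ± 0.20 (adjusted p = 0.914). The arrays of a group were far apart for TBX20, which read 10.09 and 10.82 in hypoxia and 10.28 and 10.94 in normoxia, and for MEF2C, with 8.59 and 9.44 in hypoxia. For TBX20 this gap within the group was larger than the difference of -0.15 ± 0.26 between conditions.

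Whether the hypoxia effect differed between breeds was tested with interaction terms, and limma called 0 of the 20 probe sets in each of the 3 pairs of breeds. It also called 0% of all tested probe sets. At an unadjusted p under 0.05 there were 3 of 20 for Tibetan minus Dwarf Recessive White (4% over all tested probe sets), 2 for Shouguang minus Dwarf Recessive White (4.56%) and 0 for Tibetan minus Shouguang (2.88%). The GATA5 main probe set had the smallest p of the 20 for Tibetan minus Dwarf Recessive White, at 0.55 ± 0.16 (adjusted p = 0.9997). GATA5 probe set 2 stood at 0.01 ± 0.32 for this pair. TBX20 had an interaction of 1.18 ± 0.37 for the same pair, with a 95% confidence interval from 0.38 to 1.99 and an adjusted p of 0.9997. TBX20 probe set 2 stood at 0.91 ± 0.44 (from -0.06 to 1.87). For Shouguang minus Dwarf Recessive White, TBX20 stood at 0.82 ± 0.37 on the main probe set and 0.63 ± 0.44 on probe set 2. MEF2C stood at 1.01 ± 0.38 for Tibetan minus Dwarf Recessive White and at 1.17 ± 0.38 (adjusted p = 0.999) for Shouguang minus Dwarf Recessive White. In the same order of pairs, MEF2C probe set 2 stood at -0.03 ± 0.38 and -0.15 ± 0.38, and probe set 3 at 0.86 ± 0.69 and 1.15 ± 0.69. These pairs share the Dwarf Recessive White arrays. The 14 measured W-linked genes had a median interaction of -1.42 for Tibetan minus Dwarf Recessive White, with 10 below 0. For Shouguang minus Dwarf Recessive White their median was -3.17, with 11 below 0. The part of embryo sex in the interactions of MEF2C, a Z-linked gene, was not tested.

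Breed differences over both conditions were also below the threshold for the 20 probe sets, all of which limma left uncalled. It called 0.551% of all tested probe sets for Tibetan minus Shouguang, 0.759% for Tibetan minus Dwarf Recessive White and 1.33% for Shouguang minus Dwarf Recessive White. At an unadjusted p under 0.05 there were 1, 2 and 3 of the 20 in these comparisons, against 12.2%, 12.3% and 11.7% of all tested probe sets. The medians of the 20 differences were 0.12, 0.03 and -0.01, beside 0.01, 0.00 and -0.00 for all tested probe sets.

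IRX4 came closest. On probe set 2 it averaged 12.71 ± 0.21 (SD, n = 4 arrays) in Shouguang, 12.84 ± 0.18 in Tibetan and 13.02 ± 0.12 in Dwarf Recessive White hearts. The Shouguang minus Dwarf Recessive White difference was -0.30 ± 0.08 (SE), with an adjusted p of 0.0858 in limma and a 95% confidence interval from -0.47 to -0.14. The arrays of these breeds overlapped, between 12.54 and 12.98 in Shouguang and between 12.90 and 13.18 in Dwarf Recessive White. This difference passed with quantile normalization (adjusted p = 0.0412). The main IRX4 probe set stood at -0.24 ± 0.17.

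HAND2, the factor of right ventricle and outflow tract, averaged 10.74 ± 0.30 in Shouguang, 10.93 ± 0.22 in Tibetan and 11.14 ± 0.13 in Dwarf Recessive White hearts. Shouguang minus Dwarf Recessive White was -0.40 ± 0.16 (adjusted p = 0.323), and the arrays overlapped. MEF2A on probe set 2 was higher in all 4 Shouguang arrays (12.72, 12.85, 13.06 and 12.78) than in all 4 of Dwarf Recessive White (12.58, 12.44, 12.63 and 12.70), a difference of 0.26 ± 0.09 (adjusted p = 0.227). It was the 1 probe set of the 20 whose arrays did not overlap, against 7.22% of all tested probe sets. For Tibetan minus Shouguang and Tibetan minus Dwarf Recessive White there were 0 such, against 7.22% and 7.7%. The main MEF2A probe set stood at 0.06 ± 0.08. GATA5 on its main probe set was 0.27 ± 0.08 higher in Tibetan than in Shouguang hearts (adjusted p = 0.183), while its other probe set stood at -0.23 ± 0.16.

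Among the chamber markers, 1 atrial gene passed between the same breeds. SLN (sarcolipin, which regulates the calcium pump of the sarcoplasmic reticulum and is enriched in atria) read 9.97 to 10.66 on the Shouguang arrays and 7.68 to 9.23 on the others. It differed by 2.09 ± 0.34 between Shouguang and Dwarf Recessive White (adjusted p = 0.00878) and by -1.72 ± 0.34 between Tibetan and Shouguang (adjusted p = 0.0477). The mean log2 signal of the 5 measured atrial markers lay between 11.60 and 11.70 in Shouguang and between 10.96 and 11.30 in the other breeds. That gap lay largely in SLN: Shouguang minus Dwarf Recessive White was 0.16 for NPPA, 0.17 for GJA5, 0.12 for NR2F2 and 0.32 for MYL4, none of which passed. The mean of the 4 ventricular markers, IRX4 included, lay between 13.03 and 13.30 over all arrays, and the ventricular light chain genes MYL2 and MYL3 did not pass in any breed comparison. Of 7 measured neural crest and neural markers 6 were below 0 for Shouguang minus Dwarf Recessive White, with a median of -0.42 and a mean log2 signal of 8.28 to 9.09 in Shouguang against 9.22 to 9.63. TH (tyrosine hydroxylase, of catecholamine synthesis) was the 1 called, at -3.41 ± 0.28 (adjusted p = 0.000156). It was also the 1 called for Tibetan minus Dwarf Recessive White, at -2.30 ± 0.28 (adjusted p = 0.0028). There 5 of the 7 were below 0, with a median of -0.21. HAND2 is also a factor of the sympathetic lineage. The part of atrial or neural tissue in the IRX4 and HAND2 values was not tested.

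**Figure D3:**
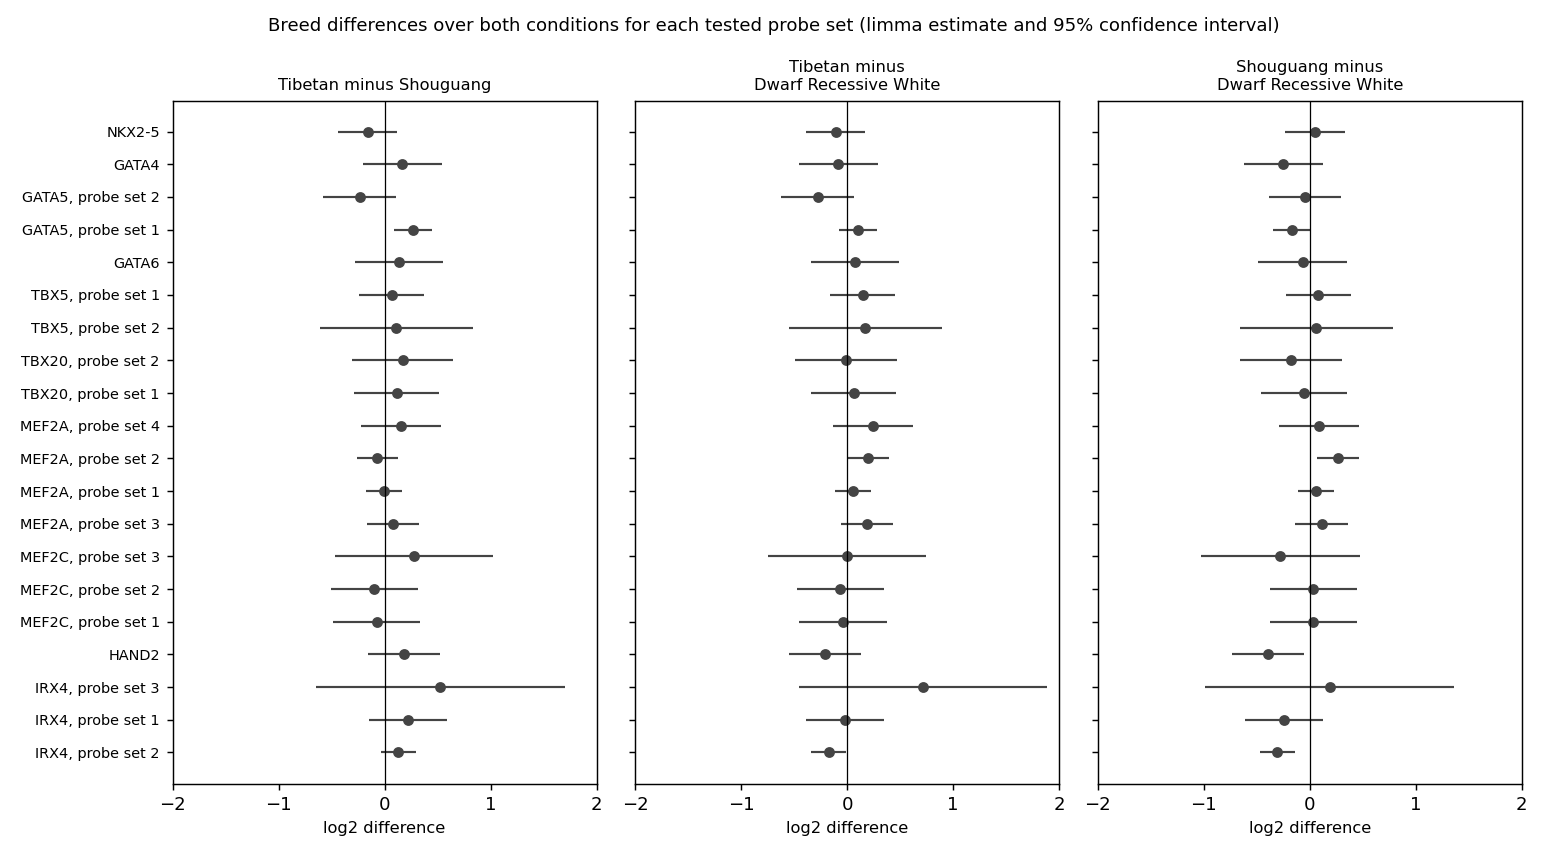
Breed differences in log2 units over both conditions (horizontal axis) for the 20 tested probe sets (vertical axis); points are limma estimates and lines 95% confidence intervals, from 4 arrays a breed. Most lines cross 0; in Shouguang minus Dwarf Recessive White, MEF2A probe set 2 lies above 0, and HAND2 and IRX4 probe set 2 lie below it.

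For 6 of the 20 probe sets the arrays of a group differed in the same sense in all 6 groups, against 13.8% of all tested probe sets. NKX2-5 read higher on replicate 1 than on replicate 2 in all 6 groups, with means of 12.66 and 12.36. GATA6 read higher on replicate 1 in all 6 groups as well (11.55 and 11.07), as did GATA5 probe set 2 (12.85 and 12.45). The main IRX4 probe set read lower on replicate 1 in all 6 groups, with means of 12.85 and 13.26. TBX5 and MEF2C probe set 3 were also lower on replicate 1 in all 6. The gap between the numbers exceeded the mean hypoxia difference in 5 of these 6 probe sets, all but TBX5, and the labels do not say what the numbers stand for.

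**Figure D4:**
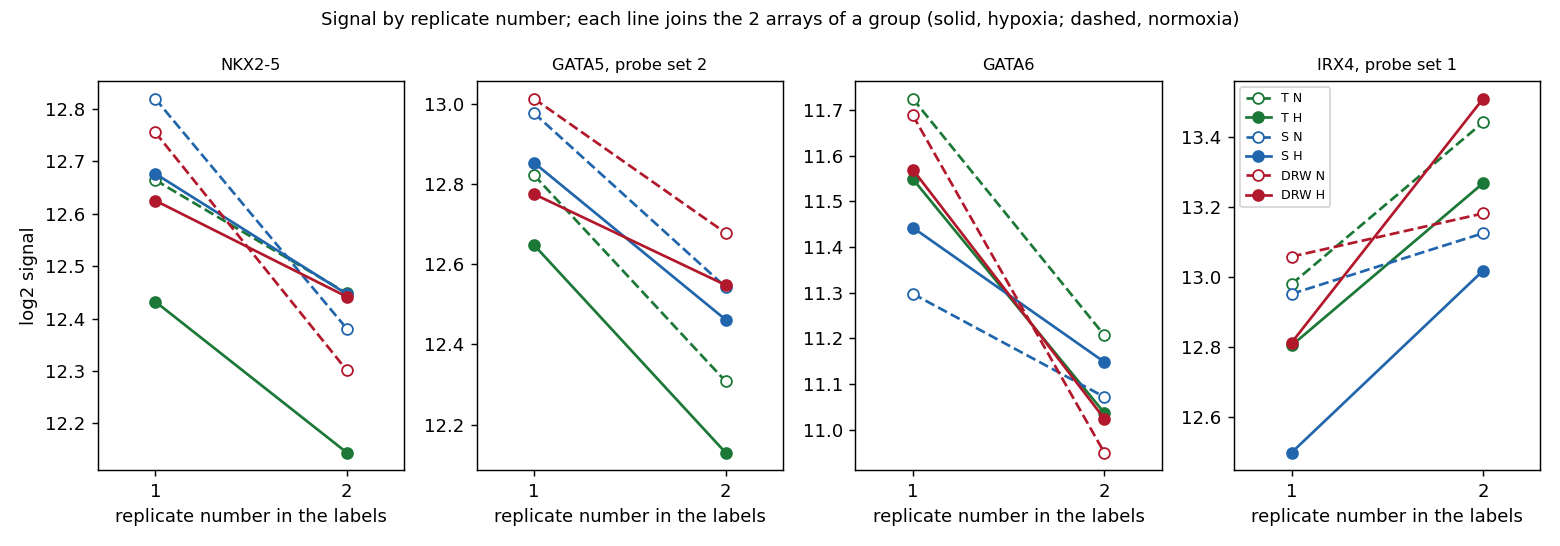
Log2 signal (vertical axis) against the replicate number of the labels (horizontal axis) for NKX2-5, GATA5 probe set 2, GATA6 and IRX4 probe set 1; each line joins the 2 arrays of a group, solid for hypoxia (H) and dashed for normoxia (N), in Tibetan (T), Shouguang (S) and Dwarf Recessive White (DRW). Replicate 1 is the higher array in all 6 groups in the first 3 panels and the lower one in all 6 in the last.

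Probe sets of the same gene were compared over the 12 arrays, in 15 pairs from the 6 genes with several tested probe sets. Both TBX20 probe sets moved together, with r = 0.937 (Pearson; permutation p = 2e-05, two-sided, adjusted over the 15 pairs 0.0003) and a Spearman rho of 0.923 (permutation p = 4e-05). Without the 2 arrays farthest from the median the TBX20 r was 0.946, and it was 0.882 and 0.972 within the arrays of replicate 1 and replicate 2. MEF2C probe sets 1 and 3 had an r of 0.751 (permutation p = 0.00468, adjusted 0.0351) and a rho of 0.685 (permutation p = 0.0167, adjusted 0.126). That r was 0.881 without the 2 farthest arrays, and 0.770 and 0.940 within the replicate numbers. The other 13 pairs did not pass, and 2 of the 15 lay below 0. GATA5 was one of these, with an r of -0.349 (permutation p = 0.263) and a rho of -0.196 (permutation p = 0.540), and 0.269 without the 2 farthest arrays. IRX4 probe set 3, under the dim limit on 5 arrays, gave the other, with probe set 2. IRX4 probe sets 1 and 2 had an r of 0.528 (permutation p = 0.0765, adjusted 0.191) and a rho of 0.510 (permutation p = 0.0933), 0.239 without the 2 farthest arrays, and 0.911 and 0.821 within the replicate numbers.

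Between genes, the main probe sets of the 10 factors gave 45 pairs, with r between -0.686 and 0.711, a median of 0.01 and 22 pairs below 0. None of the 45 passed the adjustment. TBX20 and MEF2C had an r of 0.707 (permutation p = 0.00978, adjusted 0.211) and a rho of 0.657, 0.672 without the 2 arrays farthest from the median TBX20 level, and 0.904 and 0.604 within the replicate numbers. With the group means taken out, the r of TBX20 and MEF2C was 0.473. NKX2-5 and GATA6 had an r of 0.711 (permutation p = 0.0107, adjusted 0.211) and a rho of 0.706. Within the replicate numbers the NKX2-5 and GATA6 values were -0.271 and 0.530, so that relation did not hold within the arrays of replicate 1. With the group means taken out their r was 0.894, both genes reading higher on replicate 1 in all 6 groups.

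For the 3 factors with the largest SD, the genes of most similar profile over the 12 arrays were looked up among 10276 genes, as a description with no test. TBX20 was most like TGFBR3 (a coreceptor of TGF-beta ligands; r = 0.957, rho = 0.951), VEGFRKDRL (annotated as a VEGF receptor relative; r = 0.930) and PDP2 (a pyruvate dehydrogenase phosphatase; r = 0.905). MEF2C was most like KATNBL1 (r = 0.918), BTBD9 (0.889) and TBC1D2B (0.861). GATA4 was most like MCC (r = 0.920), PDE3A (a cardiac phosphodiesterase; 0.849) and SPECC1L (0.825). The highest of so many values is high by selection, and these arrays share breed, condition and replicate number.

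Among related genes limma also called none with hypoxia. Of 27 other heart development factors 16 were measured, and limma called 0 in the mean of the breeds and 0 in each breed. Their median was 0.01 in the mean of the breeds, with 9 above 0, beside 0.01 for all tested probe sets. NKX2-3, a relative of NKX2-5, had the smallest p among them, at 0.82 ± 0.33 (adjusted p = 0.516). HAND1, the sister gene of HAND2, read 3.15 to 4.44, under the dim limit on every array, and ISL1, of the second heart field, read 3.92 to 7.13 on its 2 probe sets, which the filter removed.

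Of 20 cofactors that the factors work with, 15 were measured and 0 passed in any hypoxia comparison, with a median of 0.10. SMYD1, a muscle methyltransferase acting upstream of HAND2 in the mouse, had the smallest p at 0.14 ± 0.06 (adjusted p = 0.524), while MYOCD (myocardin, the coactivator of SRF) stood at 0.10 and SRF at -0.16. Of 32 sarcomere and other target genes 26 were measured. None passed with hypoxia, with a median of -0.06 and 18 below 0. GJA1, a gap junction gene, had the smallest p at 0.47 ± 0.10 (adjusted p = 0.148). NPPA, the natriuretic peptide gene that NKX2-5, GATA4 and TBX5 activate together, stood at 0.01 and ranged from 15.36 to 15.63 over the 12 arrays.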

How the data were processed

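Signal intensity per probe set was measured on 12 arrays; per the submitters' processing notes the authors made the deposited intensity values with GCOS (version not given in the sources used here). On each array the mean of the signals, with the highest and lowest 2% set aside, came to 500.1, so the values were taken as scaled and only log2 was applied. The 96 control probe sets were dropped, as were those below the 40th percentile of mean log2 signal (a signal of 79.5). The remaining 23063 entered limma 3.58.1 in R 4.3.3, with 1 mean for each of 6 groups and a prior variance that follows intensity (degrees of freedom: 6 residual, 6.16 prior). Contrasts were hypoxia minus normoxia per breed and averaged, breed differences, and interactions.

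Symbols came from the platform's annotation, updated through a gene table of assembly GRCg7b; 27178 probe sets had 1 symbol, 177 several and 11180 none. The main probe set of a gene is the one with the highest mean signal. From the lists, members that passed are named, otherwise the one with the smallest p. The members, lists, tests and alternatives were chosen with earlier results of these data known. The number of arrays limits the precision: the median SE over all probe sets was 0.26 within a breed, 0.15 for the mean hypoxia effect and 0.19 between breeds. Correlations used 100000 permutations of the 12 arrays, which take the arrays as exchangeable although they form 6 groups. The procedure was run on simulated data, with added hypoxia changes larger than any mean hypoxia difference of the 20 probe sets. That run therefore does not speak to changes as small as those. Sequences of the genes are not used here.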

Additional observations from a re-analysis of the deposited data

How the results depend on the processing

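The counts of called factor probe sets were recomputed under 24 alternatives: dim filters, normalizations, an offset of 10.9, no intensity trend, array weights, a W-linked covariate, 1 probe set per gene, an adjusted p of 0.1, only the arrays compared, the replicate block, and each array left out. With any array left out, all 10 comparisons kept 0 (from 0 to 0), and 8 of them kept 0 under every alternative run. For Shouguang minus Dwarf Recessive White the count was 1 with quantile normalization, 1 at an adjusted p of 0.1 and 1 with the replicate block, each time IRX4 (probe set 2, -0.30 and adjusted p = 0.0382 with the block). Its adjusted p lay between 0.0382 and 0.324 over the alternatives. For Tibetan minus Dwarf Recessive White the count was 1 with the replicate block, GATA5 (probe set 2, -0.28, adjusted p = 0.0424). The main GATA5 probe set had the opposite sign in this comparison, at 0.10 ± 0.08 without the block and from 0.03 to 0.22 over the alternatives. Why these counts changed was not tested.

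The replicate numbers were not taken as pairing the arrays: over all tested probe sets, the correlation between groups of the difference between the numbers was 0.0586 to 0.199 in 15 pairs of groups. As a hint from the data, the number itself passed as a term for 1260 tested probe sets (5.46%) and for 4 of the 20: NKX2-5 (-0.30 ± 0.05 for replicate 2 minus 1, adjusted p = 0.00951), GATA5 (probe set 2, -0.40 ± 0.05), GATA6 (-0.47 ± 0.07) and IRX4 (main probe set, 0.41 ± 0.07). With the block, the counts of all tested probe sets were 81 for the mean hypoxia effect against 13, and 605, 579 and 711 for the breed differences against 127, 175 and 306.

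Of 4660 single values recomputed, 296 changed sign, in 115 of 200 differences, 254 of them with 1 array left out, 26 with the W-linked covariate and 16 in other settings; none was called. In 6 the original difference was over 1 SE. With the W-linked covariate these were IRX4 (probe set 2) in Dwarf Recessive White hypoxia (0.011) and TBX5 in Tibetan minus Dwarf Recessive White (-0.017). With 1 array left out, they included 3 Shouguang hypoxia differences: TBX5 probe set 2 ranged from -0.026 (without hypoxia replicate 2) to 1.21, MEF2C from -0.129 (without the same array) to 0.720, and MEF2A probe set 2 reached 0.00071 without normoxia replicate 1. The Shouguang minus Dwarf Recessive White interaction of MEF2A probe set 1 ranged from -0.334 to 0.0072, the latter without Shouguang hypoxia replicate 1. TBX20 in Dwarf Recessive White hypoxia ranged from -1.26 to -0.68, the latter without normoxia replicate 2, and its adjusted p lay between 0.122 and 0.9998.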

Other observations

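Outlying arrays were looked for in each of the 20 tested probe sets, among the 4 arrays of a breed and the 6 of a condition, with Dixon's ratio at its 95% critical value. Of 100 such sets 0 held an outlier, where chance gives about 1 in 20.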
